A study of Arabidopsis thaliana with 12 samples.

Results

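The flg22 response of Arabidopsis seedlings was compared between the second and the first repeat of one experiment, called R2 and R1. For every gene and each of 3 genotypes the response was the level with flg22 minus the level without it on the log2(FPKM + 1) scale, where a step of 1 is a 2-fold change at high levels and understates the change of low genes. FPKM counts sequenced fragments per length of transcript and per size of library. The response in R1 was subtracted from that in R2, which gave 3 differences per gene from 12 libraries, all libraries of the series. Genes counted as higher in R2 when all 3 differences were at least 1 (777 genes, 3.74%), as higher in R1 when all 3 were at most -1 (108 genes, 0.52%), and as equal when the response was at least 1 in all 6 pairs of libraries and all 3 differences lay within 0.5 of 0 (11 genes), out of 20753 genes tested and 33197 in the table.

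The groups were asr3-1 with flg22, OX9 with flg22 and wild type (WT) with flg22, and the same 3 genotypes without it, labelled CK. The mutant asr3-1 is affected in ASR3, a trihelix transcription factor, and OX9, a single transgenic line, expresses HA-tagged ASR3 from 35S, a viral promoter active in most plant cells. WT is Col-0. Whole seedlings, 10 days old, had spent the night in water before flg22 was given for 30 min, at a concentration of 100 that is nM in the design text and mM in the treatment protocol. Each library holds pooled RNA of 2 biological replicates from 1 repeat, so each group has 2 libraries, 1 per repeat, and nothing in the labels says what differed between the repeats.

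As background, flg22 is a conserved stretch of bacterial flagellin that the receptor kinase FLS2 binds together with its co-receptor BAK1. Within minutes the cytoplasmic kinase BIK1, the oxidase RBOHD, calcium-dependent kinases and MAP kinase cascades become active, and a first wave of transcripts follows, among them WRKY factors, genes of hormone synthesis and enzymes of defence metabolites. Genes of growth tend to be turned down at the same time. Many genes of this wave also answer to touch, wounding or other abrupt changes.

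The libraries held an estimated 6.2 to 11.9 M reads in R2 and 6.9 to 8.3 M (mega) reads in R1, and 19137 to 19621 genes reached 1 FPKM in each. ASR3 (AT2G33550) stood at 2.505 to 6.58 FPKM in asr3-1, at 384 to 590.4 FPKM in OX9 and at 6.24 to 9.59 FPKM in WT, and its flg22 response did not differ between repeats past the test (0.28, SD 1.12, limma adjusted p = 0.8). A metallothionein gene, MT1A, took 10.17 to 16.07% of the summed FPKM in R2 and 1.46 to 1.78% in R1. Its annotated transcript of 138 nt is little longer than a read, so the scale of its FPKM is uncertain. These values need not be its share of the RNA. Markers of both shoot and root were measured: the 38 photosynthesis genes summed to 132200 to 159100 FPKM in R2 and 162700 to 194100 in R1, and the 27 root genes to 1639 to 2335 FPKM in R2 and 2173 to 2908 in R1. In whole seedlings fewer cells of a type and less RNA per cell cannot be told apart, and the part of these shifts in the results was not tested.

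Of the 436 genes that flg22 raised by at least 1 in all 6 pairs, 372 had a higher response in R2 past the test and 2 in R1. Genes with a higher response in R1 were fewer, and most of them had lower levels with flg22 in R2. With the 3 differences of a gene as its replicates, 1737 genes (8.37% of those tested) had a higher response in R2 and 778 (3.75%) a higher response in R1 past limma's test at an adjusted p under 0.05, 12.1% together. At an unadjusted p under 0.05 there were 5174 genes. All 3 differences had 1 sign in 9713 genes, 46.8% of those tested, and the median difference over all genes was 0.02. The split between directions rests on how libraries are scaled. After quantile normalization 1560 genes were higher in R2 and 1572 in R1, and after scaling to the FPKM sum without MT1A the counts were 1366 and 2042, with the median over all genes moved to -0.17. Of the 1737 genes higher in R2, 1541 and 1362 were also called so under these scalings, and of the 778 higher in R1, 777 and 778 were. With a genotype left out, which leaves 2 differences per gene, the counts fell to 969 and 269 without asr3-1, 1315 and 449 without OX9 and 1159 and 427 without WT.

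**Figure D1:**
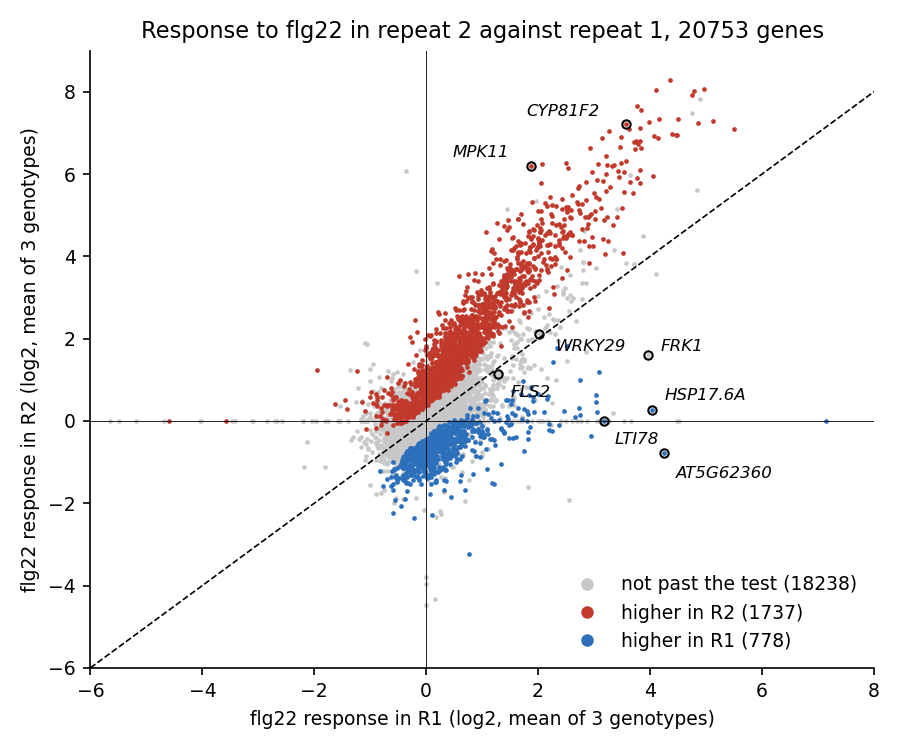
Mean flg22 response over 3 genotypes in R2 (vertical, log2) against that in R1 (horizontal, log2), 1 point per gene for 20753 genes, with the dashed line marking equal responses. The 1737 genes with a higher response in R2 (red) run above the line up to 8.28 for PP2-B13, the 778 with a higher response in R1 (blue) lie below it, and the blue points farthest to the right lie near or below 0 in R2.

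Of the 1737 genes with a higher response in R2, 1621 had a positive response that was larger in R2 and 116 had a negative response that was larger in R1. The 778 genes with a higher response in R1 comprised 564 whose negative response was larger in R2 and 214 whose positive response was larger in R1. Over the 1737 genes the median difference between R2 and R1 was 1.17 among flg22 libraries and -0.06 among CK libraries, and over the 778 genes it was -0.76 among flg22 libraries and 0.09 among CK libraries. The part from flg22 libraries was the larger in 82.6% and 70.8% of these genes, and in 56.2% of all genes tested. It was the larger in 41.4% of the 116 genes whose negative response was larger in R1, where the medians were 0.22 among flg22 libraries and -0.46 among CK libraries. The levels themselves differed between repeats for many genes in either condition. Among flg22 libraries 5501 genes (26.5%) were higher in R2 and 4327 (20.8%) higher in R1 by the same test, and among CK libraries 4175 (20.1%) and 4137 (19.9%).

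**Figure D2:**
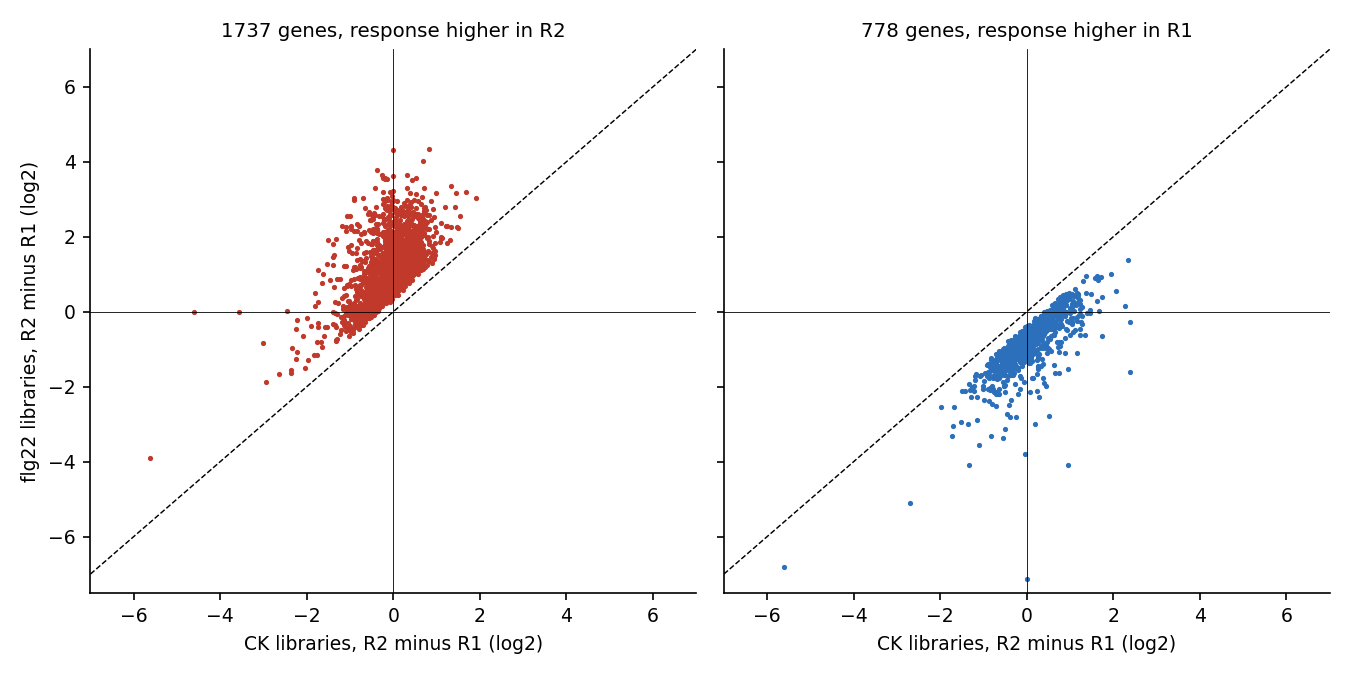
For genes past the test, the difference between R2 and R1 among flg22 libraries (vertical, log2, mean of 3 genotypes) against that among CK libraries (horizontal, log2), 1 point per gene, with the dashed line where the responses would be equal. The 1737 genes at left spread upward around a CK difference of 0 (medians 1.17 and -0.06), and the 778 genes at right spread downward (medians -0.76 and 0.09).

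Among genes that flg22 raised, the difference grew with the size of the response. Genes were sorted by their mean response in 1 genotype, and the difference between repeats was read in another genotype, which shares no library with the first. Genes with a response of 0.5 to 1 had median differences of 0.41 to 0.65 over the 6 such readings, those of 1 to 2 had 0.92 to 1.34, those of 2 to 3 had 1.52 to 1.96, those of 3 to 4 had 1.92 to 2.42, and those above 4 had 2.38 to 2.98. Above 4, 95.3 to 98.2% of genes lay above 0, with a median response of 5.09 to 7.04 in R2 and of 2.35 to 4.18 in R1. On the negative side, genes of -1 to -0.5 had median differences of -0.34 to -0.26, and the 105 to 164 genes below -1 had -0.50 to 0, with 26.2 to 44.8% above 0 and median responses of -0.22 to 0 in R2 and -0.39 to 0 in R1 in the genotype read. Falls below -1 in the genotype that set the bin mostly did not recur in the genotype read, so this bin cannot show whether the trend continued. Across the 20753 genes the responses of R2 and R1 correlated at Pearson r = 0.588 in asr3-1, 0.472 in OX9 and 0.626 in WT, and the differences of asr3-1 and WT at 0.473, of OX9 and WT at 0.457 and of asr3-1 and OX9 at 0.436. These are descriptions across genes of libraries that share a repeat, and genes are not independent replicates.

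**Figure D3:**
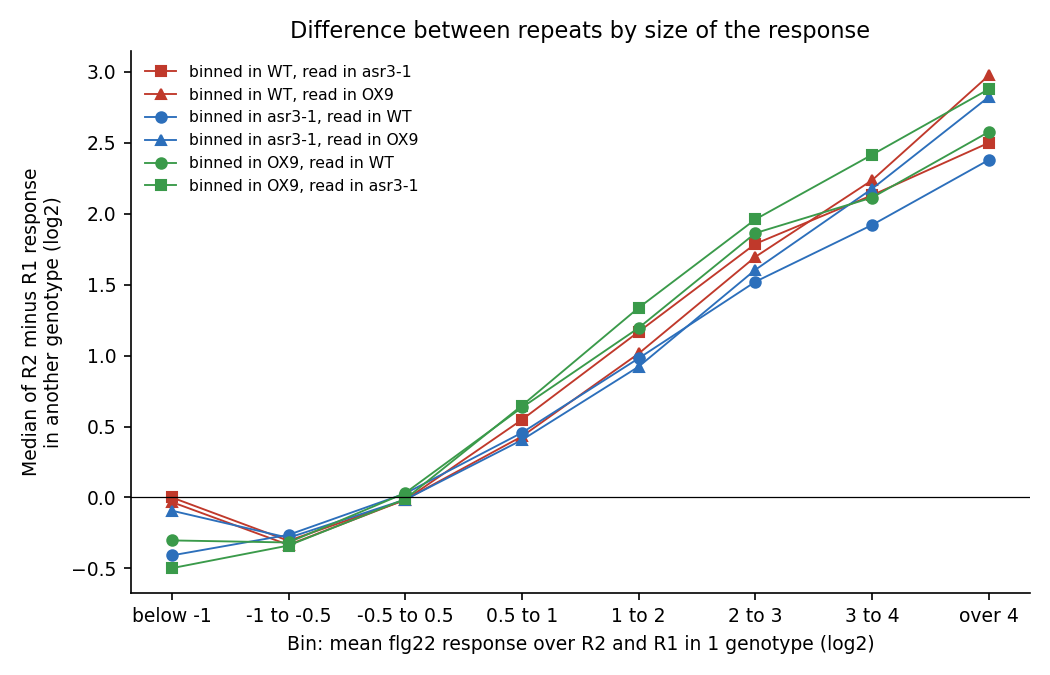
Median difference between the responses of R2 and R1 (vertical, log2) by bin of response size (horizontal, log2), where 1 genotype sets the bins and another is read, 6 lines in all. Every line climbs from values near 0 in the bin of -0.5 to 0.5 to between 2.38 and 2.98 in the bin over 4, while the bin below -1 spreads over -0.50 to 0.

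The 436 genes raised by at least 1 in all 6 pairs had the same trend. Of them 328 also had all 3 differences at 1 or more, the 2 that passed as higher in R1 were IOS1 and ABR1, and 11 were equal. Their median response was 3.89 in R2 and 2.02 in R1. At the threshold of 1, the pentatricopeptide gene AT1G18900 lay just inside with differences of 1.50, 1.001 and 1.11 in asr3-1, OX9 and WT, and the peptide hormone receptor PSKR1 just outside with 1.18, 1.08 and 0.998. At -1, the uncharacterized gene AT3G04181 lay just inside with -2.17, -1.004 and -1.12, and the small heat shock gene AT1G53540 just outside with -1.64, -0.998 and -1.72. The class of 108 at or below -1 held 172 genes with a pseudocount of 0.1, 55 with 5, 203 after scaling without MT1A and 178 to 234 with a genotype left out.

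Among the 10 largest differences toward R2 were MPK11, a MAP kinase of the immune cascade, and TET9, a tetraspanin of the membrane. Values of the 3 genotypes are given in the order asr3-1, OX9 and WT from here on. MPK11 (AT1G01560) stood at 132, 58.9 and 106 FPKM in the flg22 libraries of R2, with 0.616, 0 and 0.317 FPKM in its CK libraries. In R1 MPK11 had 6.41, 1.64 and 4.57 FPKM in the flg22 libraries, with 0.380, 0.230 and 0.282 FPKM in the CK libraries. All 3 flg22 libraries of R2 were above all 3 of R1, and the CK libraries of both repeats were under 1 FPKM. The response was 6.20 in R2 and 1.88 in R1, a difference of 4.32 (SD 0.44, n = 3 differences, limma adjusted p = 0.00027). TET9 (AT4G30430) stood at 109, 136 and 79.1 FPKM in the flg22 libraries of R2, with 0.122, 1.17 and 0.126 FPKM in its CK libraries. In R1 TET9 had 5.14, 10.8 and 5.26 FPKM in the flg22 libraries, with 0.730, 1.003 and 0.766 FPKM in the CK libraries. Its flg22 libraries did not overlap between repeats, and its difference was 4.18 (SD 0.70, limma adjusted p = 0.00045).

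The promoters of these genes are printed because they head the list, from 250 bases before to 50 bases after the gene start annotated by RefSeq in TAIR10.1, 5′ to 3′, at chr1:201853-202152 on the plus strand and chr4:14880282-14880581 on the minus strand. Capitals mark matches, on either strand, to 7 motifs: TTGAC, the core of the W-box that WRKY factors bind; GAANNTTC, a core of the heat shock element; CGCGTT, the rapid stress response element; GCCGCC, the site of ERF factors; CACGTG, the G-box; AAAATATCT, the evening element; and CCGAC, the core of the element that CBF factors of the cold response bind.
MPK11: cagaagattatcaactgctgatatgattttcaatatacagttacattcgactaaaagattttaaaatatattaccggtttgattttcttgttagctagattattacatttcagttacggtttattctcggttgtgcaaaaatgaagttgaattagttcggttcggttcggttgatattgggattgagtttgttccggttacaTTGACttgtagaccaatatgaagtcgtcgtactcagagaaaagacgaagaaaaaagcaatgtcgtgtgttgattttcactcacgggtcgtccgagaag
TET9: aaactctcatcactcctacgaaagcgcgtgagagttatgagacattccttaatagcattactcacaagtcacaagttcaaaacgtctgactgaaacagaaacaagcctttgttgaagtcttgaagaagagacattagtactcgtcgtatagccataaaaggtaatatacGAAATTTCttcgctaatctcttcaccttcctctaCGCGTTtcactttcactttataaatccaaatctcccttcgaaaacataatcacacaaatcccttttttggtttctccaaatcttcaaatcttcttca
MPK11 has 1 W-box core at -48 from the gene start, and TET9 has GAAATTTC at -81 and CGCGTT at -47. A match is a description of letters and not a shown binding site.

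The other genes among the first 10 included PP2-B13, a phloem protein gene, with 546, 306 and 431 FPKM in the flg22 libraries of R2 and 41.7, 22.0 and 37.0 FPKM in those of R1, and a difference of 3.91 (SD 0.06). They also included the TIR-type resistance gene AT1G66090 (3.89), the VQ motif gene AT1G21326 (3.79), the glycosyltransferase gene AT1G05675 (3.93), the cytochrome P450 CYP82C3 (3.77), the ankyrin repeat gene AT2G24600 (3.74) and the MATE transporter gene AT5G52050 (3.73), with limma adjusted p between 0.00016 and 0.00061. CYP82C3 was listed at 0 in all CK libraries of R2 and stood at 135, 27.7 and 119 FPKM with flg22 there, against 9.01, 2.19 and 7.70 FPKM with flg22 in R1. The largest value among the called genes belonged to AT5G27247, whose annotated transcript of 147 nt is little longer than a read. It was listed at 0 in every library but the CK libraries of R1, with 46.5, 11.0 and 24.0 FPKM, so that its difference of 4.60 carries no response to flg22 in R2.

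**Figure D4:**
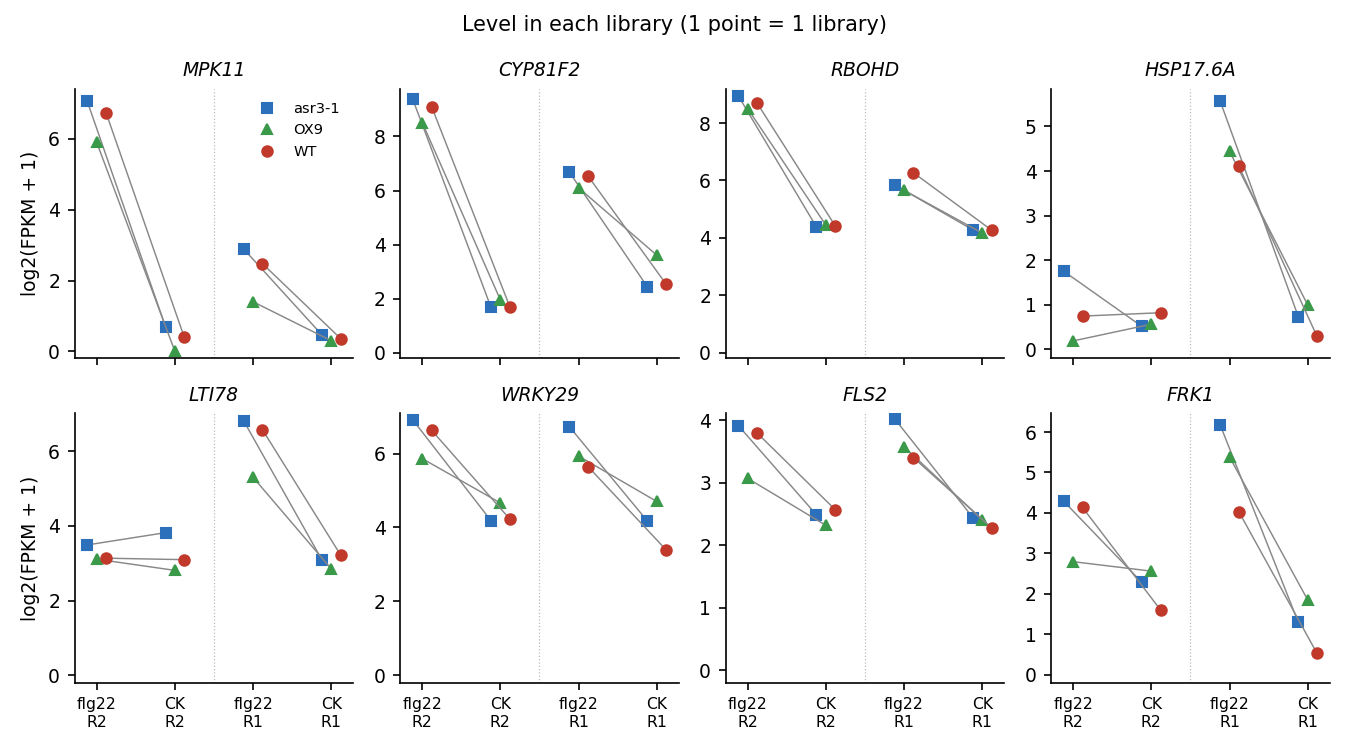
Level of 8 genes as log2(FPKM + 1) (vertical) in flg22 and CK libraries of R2 and then of R1 (horizontal), 1 point per library, with lines joining the flg22 and CK libraries of 1 genotype. MPK11, CYP81F2 and RBOHD slope more steeply in R2, WRKY29 and FLS2 slope similarly in both, and FRK1 slopes more steeply in R1. LTI78 slopes clearly in R1 alone, and so does HSP17.6A except in asr3-1, where its response in R2 was 1.24.

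Transcripts of the perception machinery mostly had a higher response in R2, and that of the flagellin receptor was among those that did not. Of the 31 genes listed for receptors and proximal signalling, 23 had a higher response in R2 and 1 in R1 past the test, with a median difference of 1.19 and median responses of 2.07 in R2 and 0.85 in R1. Counts in this list and in those below stand beside 8.37% higher in R2 and 3.75% higher in R1 among all genes tested. Among the 436 genes that flg22 raised by at least 1 in every pair, 372 were higher in R2 and 2 in R1. A large share higher in R2 therefore does not set a list of induced genes apart from induced genes in general. Whether any list differed from other genes with a response of like size was not tested. RBOHD (AT5G47910), which makes the oxidative burst, stood at 493, 362 and 415 FPKM in the flg22 libraries of R2, with 19.8, 20.8 and 20.4 FPKM in its CK libraries. In R1 RBOHD had 56.6, 49.5 and 76.2 FPKM in the flg22 libraries, with 18.4, 17.0 and 18.3 FPKM in the CK libraries. Every genotype had a higher flg22 level in R2 with like CK levels, and the difference was 2.62 (SD 0.36, limma adjusted p = 0.00027). The calcium-dependent kinase CPK28, which sets the turnover of BIK1, had 2.74, the G-protein subunit gene AGB1 1.78, the kinase gene BIR1, a partner of BAK1, 2.004, BIK1 itself 1.49 and the co-receptor BAK1 1.16, with limma adjusted p of 0.001 or less for each. FLS2 (AT5G46330) stood at 14.1, 7.39 and 12.9 FPKM in the flg22 libraries of R2, with 4.60, 3.99 and 4.93 FPKM in its CK libraries. In R1 FLS2 had 15.2, 10.9 and 9.56 FPKM in the flg22 libraries, with 4.44, 4.31 and 3.85 FPKM in the CK libraries. Its libraries overlapped between repeats in both conditions, with responses of 1.14 in R2 and 1.29 in R1 and a difference of -0.15 (SD 0.26, limma adjusted p = 0.64). The single listed receptor gene with a higher response in R1 was IOS1, a kinase that associates with FLS2 and BAK1 (-0.71, limma adjusted p = 0.037), whose CK libraries were higher in R2 by 0.87. BIK1, BAK1 and IOS1 were named after their values were seen.

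Transcripts of downstream kinases and calcium sensors shifted the same way. Of 28 genes of the MAP kinase cascade and its phosphatases, 13 had a higher response in R2 and none in R1 past limma's test, with a median difference of 0.62. MPK3, a main immune MAP kinase, reached 1944, 1746 and 1831 FPKM with flg22 in R2 and 299, 263 and 393 FPKM with flg22 in R1. Its difference was 2.21 (SD 0.26), that of its activator MKK4 was 2.11 and that of AP2C1 (AT2G30020), a phosphatase that acts on MAP kinases, was 2.48. Of 12 calmodulin-like genes, 6 had a higher response in R2 past the test and none in R1, and all 12 mean differences were above 0, as were 52.5% of those of all genes tested. TCH3, a calmodulin-like gene named for touch, had 3.43 (SD 0.32), of which 1.92 came from higher flg22 levels in R2 and the rest from CK levels that were lower in R2 by 1.51. CML37 had 3.23, CML42 1.53 and CML9 1.74.

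Of 27 early markers, 13 had a higher response in R2 and 1, IOS1, in R1 past the test, and the median response was 3.73 in R2 and 2.47 in R1. CYP81F2 (AT5G57220), an enzyme that modifies indole glucosinolates, stood at 661, 365 and 551 FPKM in the flg22 libraries of R2, with 2.22, 2.89 and 2.28 FPKM in its CK libraries. In R1 CYP81F2 had 102, 67.7 and 92.2 FPKM in the flg22 libraries, with 4.45, 11.2 and 4.82 FPKM in the CK libraries. It was higher with flg22 and lower in CK libraries in R2, without overlap on either side, and its difference was 3.63 (SD 0.38, limma adjusted p = 0.00022). The elicitor peptide precursor PROPEP3 had 3.28, the zinc finger gene ZAT11 2.47, the MYB factor MYB51 of indole glucosinolate synthesis 2.96 and PHI-1, a phosphate-induced gene, 2.06. Of 34 WRKY genes, 17 had a higher response in R2 and 1, WRKY3 (-0.94, named after its value was seen), in R1 past the test. WRKY46 had 3.69, WRKY53 3.26, WRKY40 2.96, WRKY22 2.11, WRKY15 2.11 and WRKY33, a factor of camalexin synthesis, 2.09, each with a limma adjusted p of 0.0017 or less.

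FRK1 (AT2G19190), the receptor kinase gene most often used to read the flg22 response, was one of 6 early markers with a mean difference below 0. It stood at 18.5, 5.94 and 16.6 FPKM in the flg22 libraries of R2, with 3.85, 4.90 and 2.02 FPKM in its CK libraries. In R1 FRK1 had 71.4, 40.7 and 15.3 FPKM in the flg22 libraries, with 1.45, 2.60 and 0.438 FPKM in the CK libraries. The flg22 libraries of asr3-1 and OX9 were lower in R2 than in R1, those of WT were alike, and every CK library was higher in R2 than its counterpart in R1. The response was 1.59 in R2 and 3.97 in R1, and the difference of -2.38 did not pass the test (SD 1.25, limma adjusted p = 0.054), with -2.88, -3.30 and -0.96 in the 3 genotypes. NHL10 (annotated as YLS9), another common marker, responded by 1.51 in R2 and 1.71 in R1 (difference -0.21, SD 0.72, limma adjusted p = 0.72). Its levels were higher in R2 both with flg22, by 1.09, and in CK libraries, by 1.30.

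For ethylene, 12 of 27 genes had a higher response in R2 and 1 in R1 past the test. The ERF factor gene ERF11 had 2.97, ERF105 (AT5G51190) 1.97, ERF4 1.44 and the ethylene synthesis gene ACS11 2.35, against -1.20 for ACS8 of the same enzyme family. ACS8 was named after its values were seen. For salicylic acid, 9 of 20 genes were higher in R2 and none in R1 by limma, among them the lipase-like partners EDS1 (2.11), PAD4 (1.83) and SAG101 (1.90) and the receptor gene NPR3 (2.04). For jasmonate, 9 of 32 were higher in R2 and 2 in R1, the synthesis gene AOC2 (-0.72) and the bHLH factor gene MYC4 (-0.95), both named after their values were seen. The jasmonate list had a median difference of 0.29, and 11 of its 32 mean differences were below 0. Its median responses were 0.04 in R2 and -0.03 in R1, so the genes named next stand apart from most of the list. The lipoxygenase genes LOX3 and LOX4, at the start of jasmonate synthesis, had 3.52 and 3.72, and the repressor genes JAZ5 and JAZ1 had 2.82 and 1.32. LOX3 stood at 219, 100.1 and 178 FPKM with flg22 in R2 and 10.5, 3.67 and 7.76 FPKM with flg22 in R1, with no overlap.

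Of 32 abscisic acid genes 2 were higher in R2 and 5 in R1 past the test, beside 8.37% and 3.75% of all genes tested. The median difference was -0.13. CYP707A3, which breaks abscisic acid down, had 1.65 and the early dehydration gene ERD15 1.19, while the receptor genes PYL5 and RCAR3 had -0.66 and -0.81. Named after their values were seen, the receptor gene PYL7 (-0.96), the NAC factor gene RD26 (-0.75) and the dehydration gene RD22 (-0.72) are the remaining genes higher in R1. Among 39 auxin genes 2 were higher in R2, the kinase gene PID (1.23) and IAA2 (0.45), and 5 in R1, the efflux carrier gene PIN3 (-0.60) and IAA16 (-0.41), and, named after their values were seen, PIN7 (-0.56), the AUX/IAA gene ATAUX2-11 (-0.63) and the GH3 family gene DFL1 (-0.46). With so few calls in either list, the counts were not tested against the shares of all genes.

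Genes of defence metabolism and of fast transcript turnover were among those more responsive in R2. Of 27 genes of indole glucosinolates and camalexin 14 passed as higher in R2 and none as higher in R1 in limma's test, with a median difference of 0.58. They include PEN2, a myrosinase of pathogen defence (1.88), and the glutathione transferase gene GSTF10 (1.17). Touch and wound genes had a median difference of 1.60, with responses of 3.83 in R2 and 1.56 in R1, and 16 of 24 passed as higher in R2 and none as higher in R1. The deadenylase gene CAF1a (AT3G44260), which starts mRNA decay, stood at 323, 213 and 275 FPKM in the flg22 libraries of R2, with 11.8, 10.3 and 8.40 FPKM in its CK libraries. In R1 CAF1a had 62.5, 39.4 and 79.4 FPKM in the flg22 libraries, with 16.5, 11.7 and 12.7 FPKM in the CK libraries. Its flg22 levels did not overlap between repeats, and its difference was 2.57 (SD 0.24, limma adjusted p = 0.00024). CAF1b had 2.47, the zinc finger gene SZF1 2.70 and the cell wall enzyme gene XTH18 2.30. The list of mRNA decay genes and zinc finger repressors, which shares members with the touch list, held 10 of 16 higher in R2 and 4 higher in R1. The 4 are zinc finger genes of the CCCH type, AT5G44260 (-1.92), OZF2 (-1.55), ATCTH (-0.89) and OZF1 (-0.77), named after their values were seen.

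Oxidative stress genes had 11 of 40 higher in R2 and 1 in R1, GSTU22 (-0.74, named after its value was seen), and a median difference of 0.18 that became -0.02 after scaling without MT1A. The glutathione transferase genes GSTF6 and GSTF8 had 1.41 and 1.48, BAP1, an inhibitor of cell death, 2.65, and the reductase gene OPR1 1.39. Of 18 NAC factor genes 5 were higher in R2 and 2 in R1, NAC3 (-1.30) and RD26, with NAC036 at 2.36, NAC061 at 1.96, NAC062 at 1.79, NAC090 at 1.40 and ATAF2 at 0.84. NAC3 and NAC090 were named after their values were seen. NAC061 passed the filter only through its flg22 libraries of R2. NAC062 also counts among the 19 genes of the unfolded protein response, of which 4 were higher in R2 and 1 in R1. The median difference of these 19 genes was -0.03, and 12 of their mean differences were below 0. The membrane-bound transcription factor genes BZIP60 and BZIP28 had 1.81 and 0.69 and the calreticulin gene CRT3 had 1.45, while BIP3, a chaperone target of the pathway named after its values were seen, had -1.59.

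A response of at least 1 in all pairs of R2 together with values within 0.5 of 0 in all pairs of R1 occurred in 148 genes, whose median response was 1.43 in R2 and 0.26 in R1. The subtilase gene SBT3.3 (AT1G32960), known from immune priming, stood at 6.49, 4.73 and 5.99 FPKM in the flg22 libraries of R2, with 0.0755, 0 and 0.112 FPKM in its CK libraries. In R1 SBT3.3 had 0.563, 0.110 and 0.357 FPKM in the flg22 libraries, with 0.117, 0.214 and 0.121 FPKM in the CK libraries. All of its flg22 libraries of R2 were above 4 FPKM and all its other libraries under 1 FPKM. SBT3.3 passed the filter through these flg22 libraries of R2 alone and was picked by the rule of this class, so the separation adds no support. The next by response in R2 were the deaminase gene AT4G29610 (2.61 in R2, 0.22 in R1), the resistance genes AT5G46510 (2.46 in R2, 0.45 in R1) and AT5G41550 (2.45 in R2, 0.33 in R1) and the glycosyltransferase gene AT4G19460 (2.26 in R2, 0.29 in R1). AT5G41550 too passed the filter only through its flg22 libraries of R2. The kinase gene RIPK of immune signalling and EDS5, which exports a salicylic acid precursor, were in this group as well, with responses of 1.72 and 1.35 in R2 and of 0.41 and -0.10 in R1, and both were named after their values were seen.

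On the R1 side, the largest differences belonged to the snoRNA gene AT1G03506, described below, and to AT5G62360, an inhibitor of cell wall enzymes by its annotation. They were followed by the uncharacterized gene AT2G29263 (-4.000, limma adjusted p = 0.0031), with a transcript of 261 nt and at most 12.2 FPKM in any library, and by HSP17.6A, a small heat shock protein gene. AT5G62360 stood at 15.2, 13.6 and 12.5 FPKM in the flg22 libraries of R2, with 24.6, 29.3 and 20.1 FPKM in its CK libraries. In R1 AT5G62360 had 357, 137 and 316 FPKM in the flg22 libraries, with 12.0, 12.3 and 12.3 FPKM in the CK libraries. With flg22 it was lower than in CK libraries in all pairs of R2 and far higher in all pairs of R1, so the responses were -0.79 in R2 and 4.25 in R1 and the difference -5.03 (SD 0.53, limma adjusted p = 0.00024). HSP17.6A (AT5G12030) stood at 2.37, 0.142 and 0.679 FPKM in the flg22 libraries of R2, with 0.428, 0.480 and 0.769 FPKM in its CK libraries. In R1 HSP17.6A had 46.5, 20.8 and 16.2 FPKM in the flg22 libraries, with 0.663, 0.995 and 0.224 FPKM in the CK libraries. Its flg22 libraries of R1 lay above every library of R2, and the difference was -3.77 (SD 0.15, limma adjusted p = 0.00027). LTI78 (AT5G52310), a cold and drought gene used to read CBF activity, stood at 10.2, 7.62 and 7.79 FPKM in the flg22 libraries of R2, with 13.1, 6.01 and 7.55 FPKM in its CK libraries. In R1 LTI78 had 111, 38.4 and 94.3 FPKM in the flg22 libraries, with 7.54, 6.20 and 8.31 FPKM in the CK libraries. In R2 flg22 and CK libraries overlapped, in R1 they did not, and the difference was -3.17 (SD 0.95, limma adjusted p = 0.0095).

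The promoters of these 3 genes are shown over the same span, at chr5:25040290-25040589 (plus strand), chr5:3884789-3885088 (minus strand) and chr5:21240467-21240766 (plus strand). The first pair are the highest-ranked protein-coding genes with transcripts of at least 300 nt, and LTI78 was picked after its values were seen because it stands for the cold genes below.
AT5G62360: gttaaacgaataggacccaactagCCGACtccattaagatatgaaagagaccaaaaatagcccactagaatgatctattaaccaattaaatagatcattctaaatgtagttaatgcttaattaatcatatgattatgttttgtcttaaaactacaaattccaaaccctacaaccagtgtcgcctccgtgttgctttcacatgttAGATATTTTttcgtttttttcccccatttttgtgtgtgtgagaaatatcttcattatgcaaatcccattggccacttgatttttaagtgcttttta
HSP17.6A: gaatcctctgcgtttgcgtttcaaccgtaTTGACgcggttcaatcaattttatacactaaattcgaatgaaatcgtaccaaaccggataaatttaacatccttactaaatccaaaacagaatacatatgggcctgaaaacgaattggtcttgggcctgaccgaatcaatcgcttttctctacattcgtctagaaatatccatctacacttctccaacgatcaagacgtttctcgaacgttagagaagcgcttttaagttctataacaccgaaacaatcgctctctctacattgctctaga
LTI78: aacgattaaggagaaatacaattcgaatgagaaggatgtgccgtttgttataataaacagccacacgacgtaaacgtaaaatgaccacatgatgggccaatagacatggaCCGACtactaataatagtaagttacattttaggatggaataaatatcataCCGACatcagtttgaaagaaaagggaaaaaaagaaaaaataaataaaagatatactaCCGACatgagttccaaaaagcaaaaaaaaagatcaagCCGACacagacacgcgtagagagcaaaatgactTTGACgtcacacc
LTI78 has CCGAC at -140, -90, -33 and 5 and TTGAC at 38. AT5G62360 has CCGAC at -226 and the evening element at -46. HSP17.6A has TTGAC at -221 and no GAANNTTC in this window. Heat shock elements with their units in another order were not searched for. The printed HSP17.6A sequence does hold ttctcgaa, the same units in the other order, which is left unmarked for that reason. Whether it is a binding site was not tested. The motif CCGAC was added to the search after the cold genes had been seen.

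Of the 23 lists, heat shock had the most genes higher in R1. Of 31 measured, 10 had a higher response in R1 and 3 in R2 past the test, 24 mean differences were below 0, and the median was -0.77, with responses of 0.24 in R2 and 1.01 in R1. Their summed level was 151 to 277 FPKM in R2 and 180.4 to 727 FPKM in R1. After HSP17.6A came the small heat shock genes AT1G07400 (-2.83) and AT2G29500 (-2.61) and the chaperone gene HSP90.1 (-2.58, limma adjusted p = 0.0084). HSP90.1 stood at 6.66, 6.24 and 5.82 FPKM in the flg22 libraries of R2, 82.8, 47.3 and 31.9 FPKM in those of R1 and between 2.90 and 5.44 FPKM in all CK libraries. The heat shock factor genes split: HSFA7A had -1.02 and HSFA2 -1.33 (not past the test, limma adjusted p = 0.057), while HSFA3 (1.56), HSFB2A (1.09) and HSFB2B (1.14) had a higher response in R2. HSP90.1, HSFA2, HSFB2A and HSFB2B were named after their values were seen. Several small heat shock genes have near-identical neighbours, and the handling of reads that fit several genes is unknown, so their separate values are uncertain.

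Cold and CBF genes went both ways. Past the test 8 of 24 were higher in R1 and 4 in R2, with a median of -0.43 and responses of 0.02 in R2 and 1.08 in R1. Without OX9 the median was -0.82. The summed level of the list was 1028 to 2431 FPKM in R2 and 1432 to 5206 FPKM in R1. The 8, mostly genes of proteins that protect cells in cold and drought, include, besides LTI78, COR15B (-2.46), the dehydrin gene ERD10 (-1.33), COR47 (-1.72), the galactinol synthase gene GolS3 (-2.43) and ERD7 (-1.77). COR15B (AT2G42530) stood at 4.91, 2.35 and 3.14 FPKM in the flg22 libraries of R2, with 5.39, 2.19 and 3.91 FPKM in its CK libraries. In R1 COR15B had 55.5, 37.5 and 61.2 FPKM in the flg22 libraries, with 9.16, 5.46 and 14.0 FPKM in the CK libraries, and its flg22 libraries of R1 were above all other libraries. Its CK libraries were also lower in R2 than in R1, by 1.10 (limma adjusted p = 0.0081). COR15A, the neighbouring gene and a close copy that may share reads with it, had 4.68, 1.90 and 4.71 FPKM with flg22 and 4.31, 1.06 and 4.67 FPKM in CK libraries in R2, and 353, 63.9 and 222 FPKM with flg22 and 23.1, 14.1 and 12.5 FPKM in CK libraries in R1, but its difference of -3.14 varied between genotypes and did not pass (SD 1.33, limma adjusted p = 0.066). The 4 genes higher in R2 were transcriptional regulators, MYB15 (2.53), STZ (1.67), RHL41 (1.61) and SR1 (1.72). The CBF genes themselves were low and did not pass, with DREB1A (CBF3) at -1.11 (limma adjusted p = 0.052) and CBF2 at -0.79 (0.058). Genes of this paragraph other than LTI78, COR15A, COR15B, ERD7, ERD10 and MYB15 were named after their values were seen.

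In all, 21 genes had a response of at least 1 in all pairs of R1 and within 0.5 of 0 in all pairs of R2, with a median response of 0.05 in R2 and 1.93 in R1. Cold-responsive genes (LTI78, LTI30, COR15A, COR15B, COR47, COR413IM1 and KIN2) and chaperone genes (AT1G07400, AT2G29500, HSP101, ATERDJ3A and AT5G48570) made up 12 of them, a grouping made after the names were seen. The dehydrin gene LTI30 stood at 45.6, 36.5 and 54.3 FPKM with flg22 and 36.9, 47.8 and 41.7 FPKM in CK libraries in R2, and at 273, 136 and 288 FPKM with flg22 and 29.6, 44.4 and 30.0 FPKM in CK libraries in R1. The largest value in this class, -7.14, belongs to the snoRNA gene AT1G03506, with 145, 143 and 133 FPKM in flg22 libraries of R1 and listed at 0 in the other 9. Its annotated length of 87 nt is shorter than a read, and such FPKM values have no reliable scale. A lone gene named after its values were seen, ABR1, an ERF factor gene of abscisic acid signalling, was raised by at least 1 in all 6 pairs and had all 3 differences at -1 or below, with a response of 1.19 in R2 and 3.10 in R1 (difference -1.91, limma adjusted p = 0.0027).

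The remaining genes toward R1 were mostly ones whose level was lower with flg22 in R2, with little response in R1. HBI1 (AT2G18300), a growth-promoting bHLH factor that restrains immunity, stood at 37.8, 29.6 and 42.4 FPKM in the flg22 libraries of R2, with 113, 101 and 104 FPKM in its CK libraries. In R1 HBI1 had 61.0, 48.0 and 46.8 FPKM in the flg22 libraries, with 61.6, 57.7 and 47.7 FPKM in the CK libraries. In R2 the flg22 libraries were all below the CK libraries, in R1 the values interleaved, and the difference was -1.42 (SD 0.15, limma adjusted p = 0.00051). For HBI1 the difference between R2 and R1 was -0.50 among flg22 libraries and 0.92 among CK libraries, so the CK part was the larger. The related bHLH gene CIB1 (AT4G34530) stood at 0.374, 0.001997 and 0.780 FPKM in the flg22 libraries of R2, with 3.996, 2.43 and 2.49 FPKM in its CK libraries. In R1 CIB1 had 26.7, 15.6 and 25.5 FPKM in the flg22 libraries, with 10.1, 6.64 and 10.6 FPKM in the CK libraries, so that its responses had opposite signs, -1.54 in R2 and 1.21 in R1. HFR1, a bHLH factor of light signalling, had -1.17, the trehalose phosphate synthase-like gene TPS8 -1.45 and the phloem protein gene PP2-A13 -2.29. BEE1, a brassinosteroid-induced bHLH factor, had -1.79, but its larger response was a rise in R1 (-0.57 in R2, 1.22 in R1). Genes of this paragraph except CIB1 were named after their values were seen.

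Opposite responses of at least 0.5 in size in all pairs were found in 7 genes. The 5 with a positive response in R1 were AT5G62360, CIB1, the extensin-like gene AT5G19810 (-1.50 in R2, 1.17 in R1), the hydrolase gene AT5G41900 (-1.16 in R2, 1.09 in R1) and AT1G53610 (-1.59 in R2, 1.82 in R1, not past the test), and the 2 with a positive response in R2 were the lipid transfer protein gene AT4G22610 (1.08 in R2, -0.70 in R1) and AT2G07826 (1.23 in R2, -1.96 in R1). AT5G19810, AT1G53610 and AT2G07826 stayed under 12 FPKM in every library. A level lower by at least 0.5 in all 6 pairs was rarer than a rise, with 14 genes and a median response of -0.97 in R2 and -0.67 in R1. Of these, 5 passed the test and all 5 had the more negative response in R2. They were AT2G25200 (-0.96), the RING protein gene AT5G47610 (-0.82), AT2G41250 (-0.77), the phytochrome-interacting factor gene PIL5 (-0.59, named after its value was seen) and the cell wall enzyme gene BXL1 (-0.39).

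Among circadian clock genes, LHY (AT1G01060), a morning gene picked after its values were seen, stood at 12.9, 15.7 and 16.3 FPKM in the flg22 libraries of R2, with 19.1, 21.5 and 22.9 FPKM in its CK libraries. In R1 LHY had 80.9, 86.9 and 107 FPKM in the flg22 libraries, with 120.3, 106 and 145 FPKM in the CK libraries. Its levels in R2 were far below those in R1 in both conditions, by 2.53 with flg22 and 2.48 in CK libraries (limma adjusted p = 3.4e-05 and 0.00025), while its response was -0.48 in R2 and -0.43 in R1 (difference -0.05, limma adjusted p = 0.83). Of 30 clock genes, 6 had a higher response in R1 and 2 in R2 past the test, with a median of -0.28. The shares among all genes tested were 3.75% and 8.37%. PRR5 (-1.33) was higher in CK libraries of R2 by 1.61, RVE1 (-0.97) was lower in them by 1.02, LNK4 (AT5G06980) had -0.58, CHE (TCP11) 0.82 and the evening gene TOC1, named after its values were seen, 0.57. The part of these shifts in CK levels in the other differences was not tested.

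In the 11 equal genes both repeats raised the level by amounts within 0.5 of each other, as their rule requires. There were 5 such genes with a pseudocount of 5 and 15 to 51 with a genotype left out. WRKY29 (AT4G23550), a WRKY factor downstream of the FLS2 cascade, stood at 119, 57.2 and 98.1 FPKM in the flg22 libraries of R2, with 17.2, 24.4 and 17.8 FPKM in its CK libraries. In R1 WRKY29 had 105, 60.1 and 49.2 FPKM in the flg22 libraries, with 17.1, 25.1 and 9.52 FPKM in the CK libraries. The flg22 libraries of the repeats overlapped and so did the CK libraries, and the response was 2.11 in R2 and 2.01 in R1 (difference 0.10, SD 0.11, limma adjusted p = 0.63). AT5G57510, annotated as a cotton fiber protein, responded by 2.28 in R2 and 2.39 in R1, AT1G15010 by 2.12 in R2 and 2.30 in R1, the ankyrin gene AT4G03460 by 2.26 in R2 and 2.12 in R1 and the pectin methylesterase inhibitor family gene AT2G47550 by 2.17 in R2 and 2.01 in R1. The kinase genes MAPKKK15 (1.99 in R2, 1.89 in R1) and SD1-29 (1.89 in R2, 1.61 in R1), AT1G51270 (1.87 in R2, 1.57 in R1), the berberine bridge enzyme family gene AT4G20860 (1.63 in R2, 1.71 in R1), the amino acid transporter gene LHT1 (1.77 in R2, 1.57 in R1) and the zinc finger gene ZF3 (1.14 in R2, 1.24 in R1) complete the class, ZF3 beyond the rule for names. At the limit of 0.5, AT1G15010 lay just inside with differences of 0.35, -0.46 and -0.43, and ZF1 just outside with 0.37, 0.28 and 0.58. The 2 with the largest response and WRKY29 have these promoters, at chr5:23289586-23289885 (minus strand), chr1:5170931-5171230 (plus strand) and chr4:12291382-12291681 (plus strand, picked after its values were seen).
AT5G57510: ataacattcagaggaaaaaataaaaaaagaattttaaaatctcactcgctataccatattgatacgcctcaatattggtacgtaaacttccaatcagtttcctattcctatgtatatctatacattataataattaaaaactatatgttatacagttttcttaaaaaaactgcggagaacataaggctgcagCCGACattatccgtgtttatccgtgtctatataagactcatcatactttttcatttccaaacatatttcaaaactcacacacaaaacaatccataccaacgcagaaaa
AT1G15010: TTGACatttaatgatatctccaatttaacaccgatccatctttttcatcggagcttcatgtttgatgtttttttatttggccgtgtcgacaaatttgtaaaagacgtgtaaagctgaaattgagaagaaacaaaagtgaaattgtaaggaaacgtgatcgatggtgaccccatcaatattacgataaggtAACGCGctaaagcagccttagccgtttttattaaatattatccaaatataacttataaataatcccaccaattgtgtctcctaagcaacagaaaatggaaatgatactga
WRKY29: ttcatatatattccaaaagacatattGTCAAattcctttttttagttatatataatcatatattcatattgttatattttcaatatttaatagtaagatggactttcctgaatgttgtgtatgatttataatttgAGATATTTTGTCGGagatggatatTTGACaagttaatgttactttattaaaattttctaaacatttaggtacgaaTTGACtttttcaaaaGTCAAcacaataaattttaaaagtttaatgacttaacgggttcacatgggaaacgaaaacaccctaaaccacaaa
WRKY29 has TTGAC or its reverse complement 4 times, between -224 and -25, with the evening element at -115 and CCGAC on the other strand at -106. AT1G15010 has TTGAC at -250 and CGCGTT on the other strand at -60, and AT5G57510 has CCGAC at -58 and none of the other motifs.

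Over whole classes the motifs were counted in promoters of the same 300 bases, of protein-coding genes that were tested, and no test was made of these shares. Here the genes higher in R2 or in R1 are those with all 3 differences at least 1 or at most -1. TTGAC, read on both strands, was present in 70.2% of 755 promoters of the genes higher in R2, in 41.0% of 100 of those higher in R1 and in 51.4% of all 19924. CGCGTT was present in 12.1% of promoters of genes higher in R2, 2.0% of those higher in R1 and 3.77% of all, and GAANNTTC in 21.3%, 11.0% and 11.3%. Heat shock elements with their units in the other order, as in HSP17.6A, were not counted. CCGAC was present in 15.1% of promoters of genes higher in R2, 32.0% of those higher in R1 and 16.0% of all, and the evening element AAAATATCT in 3.44%, 11.0% and 3.02%. GCCGCC (3.44%, 2.0% and 2.57%) and CACGTG (7.42%, 8.0% and 8.69%) were closer to their shares among all promoters. In the 11 promoters of equal genes TTGAC was present in 7 and CGCGTT in 2.

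**Figure D5:**
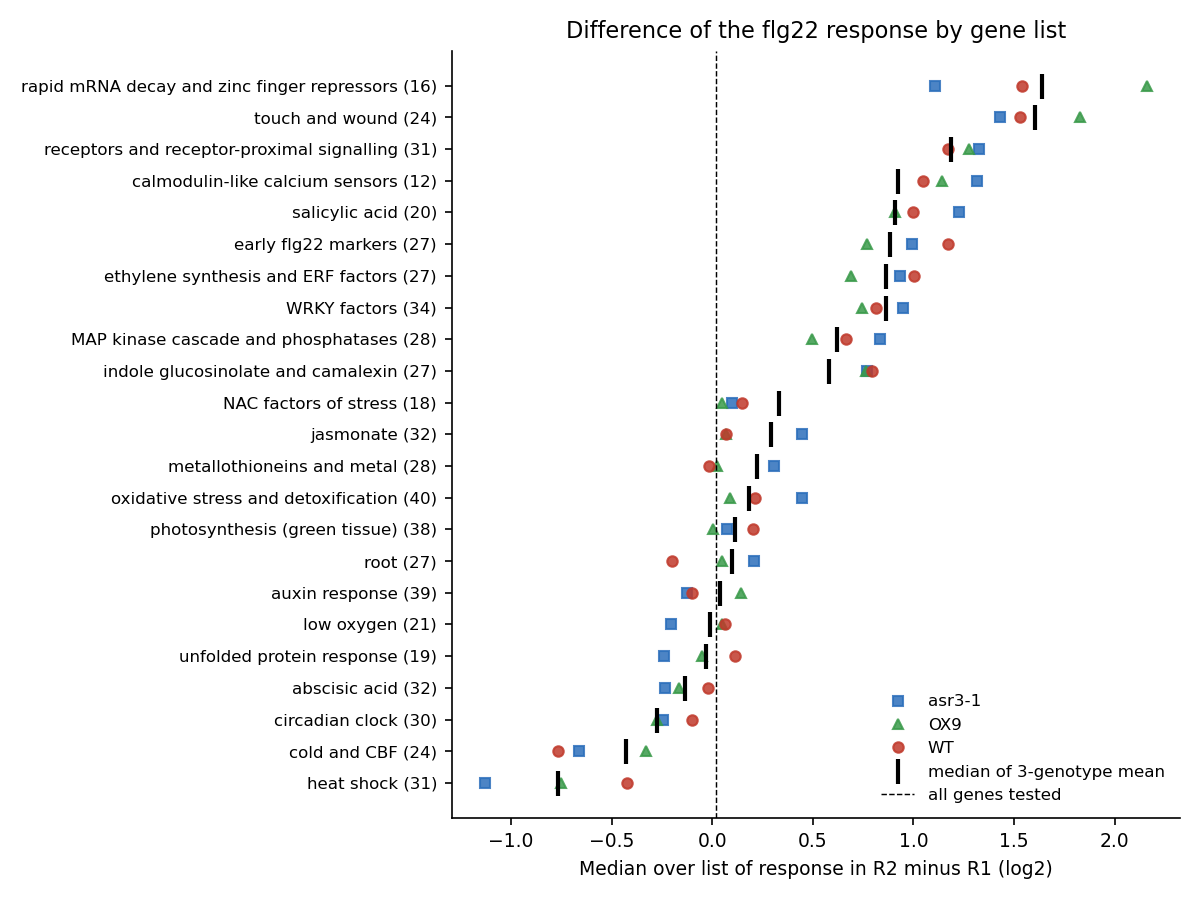
Median difference between the responses of R2 and R1 (horizontal, log2) for 23 gene lists (vertical, number of tested genes in brackets), with a symbol per genotype, a bar for the median of the genes' mean over 3 genotypes and a dashed line for all genes tested. Lists of mRNA decay, touch and receptors lie at 1.64, 1.60 and 1.19, and heat shock and cold lie lowest at -0.77 and -0.43, in each genotype on the same side of 0.

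Lists of green tissue, root, low oxygen and metal genes had medians between -0.01 and 0.22. Photosynthesis genes had a median difference of 0.11 and root genes 0.10, with 2 of 38 and 2 of 27 higher in R2 and none higher in R1 past limma's test. The medians were -0.001 and 0.03 after quantile normalization and -0.10 in both lists after scaling without MT1A. Those that passed were the Rubisco small subunit genes RBCS2B (0.59) and RBCS3B (0.48), which are near-identical copies, and the root genes PYK10 (0.85) and the nitrate transporter NRT2:1 (2.04). Of 21 low oxygen genes 2 were higher in R2, LBD41 (1.03) and AlaAT1 (0.46), and 1 in R1, ERF73 (-0.78), shares close to the 8.37% and 3.75% of all genes. Under 1 or both of these scalings RBCS2B, RBCS3B, PYK10, AlaAT1 and IAA2 no longer passed, with limma adjusted p of 0.063 to 0.18. Of 28 metal genes none was higher in R2 and 2 were higher in R1, the zinc transporter gene ZIP5 (-1.31) and MT2A (-0.62). MT1A itself was higher in R2 in both conditions, by 3.26 with flg22 and 3.04 in CK libraries, and its response did not differ past the test (0.23, SD 0.59, limma adjusted p = 0.64). With a transcript of 138 nt, the scale of its FPKM is uncertain.

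The test asks whether a difference recurs in 3 genotypes treated in the same pair of repeats. Each repeat was made once, so whatever else differed between these occasions cannot be told apart from the repeat, and the p-values say nothing about further repeats.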

How the data were processed

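RNA of whole seedlings was sequenced in 12 libraries. Values are FPKM, as deposited by the authors. Tools named in the submitters' processing notes are Cuffdiff 2.2.1, TopHat2 2.0.12, bcl2fastq 1.8.4 and cutadapt 1.0, and TAIR10 is their build; steps and order are unknown. Strandedness and the treatment of reads that fit several genes are not given in the sources used here, so overlapping, antisense and near-identical genes are uncertain.

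Of 33373 lines with an identifier, 176 that shared 88 identifiers were left out, as were 693 blank lines. Testing took the 20753 genes that reached 1 FPKM in 2 or more libraries. On log2(FPKM + 1) the difference of responses, R2 minus R1, was taken in each genotype, and its mean over 3 genotypes was tested against 0 in limma 3.58.1 (R 4.3.3) with a mean-variance trend and robust moderation, adjusted by Benjamini-Hochberg over all tested genes, called under 0.05, 2-sided. Differences between repeats among flg22 and among CK libraries were tested alike. SD is over the 3 differences.

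The number of a library pairs it across groups: the design text gives 2 independent repeats, and the differences R2 minus R1 of the 6 groups correlated across genes at 0.568 to 0.805 over 15 pairs of groups. The plan named a count model if counts were deposited, and limma for FPKM, which applied. Counts were not used here, so the depth is an estimate from the lowest nonzero FPKM of genes with 1 transcript of 2500 to 8000 nt, and no counting intervals are given.

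The members and the 23 gene lists (678 names, 587 tested) were chosen with earlier results of these data known. Named genes are the 10 largest differences per direction among called genes of at least 1 FPKM on average with 3 differences of 1 sign; the 10 equal genes of largest response; up to 5 of each class raised in 1 repeat, opposite or lowered; up to 4 per list by smallest p; MYB51, NHL10, FRK1, PHI-1, CYP81F2, FLS2, WRKY53, WRKY33, WRKY29, MT1A and ASR3; and genes at the class limits. Others are said to be chosen after their values were seen. Names, positions and promoters are from RefSeq's TAIR10.1 (32722 of 33197 identifiers matched). Promoters shown are of the first 2 named genes per class that are protein-coding with a transcript of at least 300 nt. Alternatives were the pseudocount, the filter, scaling, moderation, the pairing and leaving out each genotype, and, added after the data were seen, leaving out transcripts under 300 nt.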

Additional observations from a re-analysis of the deposited data

Results flagged for a closer look

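The flg22 response differed between the repeats, which are the same contrast made on separate occasions, for 1737 genes higher in R2 and 778 higher in R1, by limma's test of the difference itself. Opposite responses in every genotype drew attention as well: 5 genes were higher with flg22 in R1 and lower in R2, and 2 genes were higher with flg22 in R2 and lower in R1. Of these 7, all but AT1G53610 also passed the test of the difference. That test uses the same differences by which these genes were picked, so it adds no support. Outlying samples were not searched for, since each group has 2 libraries.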

How the results depend on the processing

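Counts of 1737 and 778 calls became 969 to 1315 and 269 to 449 when a genotype was left out, which leaves 2 differences per gene; the lowest pair came without asr3-1. Calls higher in R1 numbered 494 with no filter, 1572 after quantile normalization and 2042 after scaling to the sum without MT1A, which also moved the median of all genes from 0.02 to -0.17. Without the replicate block (a model of all 12 libraries with shared repeat terms) 1596 and 565 genes passed, 1509 and 518 of them in common with the paired fit. The 108 genes with all differences at most -1 numbered 172 with a pseudocount of 0.1, 55 with 5, 203 after scaling without MT1A and 178 to 234 with a genotype left out, where only 2 differences must pass. Equal genes numbered 5 with a pseudocount of 5 and 15 to 51 with a genotype left out. The median of early flg22 markers, 0.88, was 1.15 with a pseudocount of 0.1 and 1.53 with a filter at 5 FPKM, which induced markers can pass through their flg22 libraries alone, and that of cold genes, -0.43, was -0.82 to -0.36 with a genotype left out, lowest without OX9; heat shock stayed within its spread.

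Of 1679 values of 153 named genes, 1551 kept direction and call, 88 lost and 26 gained the call, and 14 reversed, all of genes that are not called. With a pseudocount of 0.1 AT4G03460 was -0.18; with 5, AT5G57510 was 0.25, MAPKKK15 -0.11 and YLS9 0.088. After quantile normalization AT4G03460 was -0.013, MAPKKK15 -0.046 and PSBO2 -0.12, and after scaling without MT1A WRKY29 was -0.10 and LHT1 -0.004. With a genotype left out YLS9 ranged over -0.60 to 0.11 (highest without WT), AT5G57510 over -0.198 to 0.009 (highest without OX9), and AT5G66053, a gene lowered in all 6 pairs with a transcript of 147 nt, over -0.40 to 0.23, ASR3 over -0.31 to 0.81 and MT1A over -0.055 to 0.53, where the reversals came without asr3-1. Of 180 other list medians 40 moved by more than the spread between genotypes. The cause of these shifts was not tested. Depth limits genes near 1 FPKM.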
